A study of Drosophila melanogaster with 47 samples.

Results

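The strains *tim_up10* and *tim_in24* carry the smallest deletions made at the clock gene *timeless* (*tim*), and the rhythms they share over a 24 h day are described here. Per the study, *tim_up10* lacks 10 bp upstream of the gene, including its E-box, and *tim_in24* lacks 24 bp of an intron, including the intronic E-box. Each deletion was made by CRISPR with a single guide RNA and the second chromosomes carrying it were made homozygous. The E-box is the motif that recruits the activator CLK:CYC. Of 47 RNA libraries from heads of male and female flies, 12 belong to these strains, 6 to each, 1 per strain every 4 h from ZT2 to ZT22 (Zeitgeber time, hours after lights-on). All flies had been kept for 4 d at 25 °C in 12 h of light and 12 h of dark. The control *yw* has no deletion at *tim* and has 11 libraries. The strains *tim_up126* and *tim_up122*, with longer upstream deletions made by tandem guide RNAs, have 12 each. For every gene, 1 cosine and sine with a period of 24 h common to both strains was tested against a model with a level for each strain alone. The strains therefore stand in for replicates of each time point. A rhythm in 1 strain alone raises the spread and lowers the chance of a call. Each strain was sampled over 1 cycle in a light-dark schedule, so light-driven and clock-driven changes cannot be told apart.

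In *Drosophila*, CLK and CYC activate *per*, *tim*, *vri* and *Pdp1* toward the evening, and the PER and TIM proteins then accumulate and repress CLK:CYC late at night. VRI represses *Clk* and PDP1 activates it, which places *Clk* and *cry* mRNA in antiphase to *per* and *tim*. Photoreceptors and glia of the head also hold this clock, and many mRNAs of fly heads cycle downstream of it or in response to light.

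The 12 libraries held between 2863196 and 6281309 counts. Levels are given as CPM, counts scaled to library size with TMM factors. The amplitude, ± SE, is the square root of the summed squares of the cosine and sine coefficients on log2 CPM. The fitted peak thus lies 2 amplitudes above the trough. In the BDGP6.54 annotation, which uses dm6 coordinates, *tim* (FBgn0014396) spans 3493986 to 3508119 of chromosome 2L, minus strand. Its deletions are not measured by counts over the whole gene, so its level does not check the labels. Its mRNA was higher in *tim_in24* than in *tim_up10* at all 6 time points, by 1.44-fold at ZT2 and up to 2.14-fold at ZT6. The summed photoreceptor markers lay between 53530 and 59030 CPM in *tim_up10* and between 56010 and 67310 CPM in *tim_in24*. The summed fat body markers were higher in *tim_up10*, 10480 to 14230 CPM, than in *tim_in24*, 4730 to 11710 CPM. The neuron markers were lowest in *tim_in24* ZT22, at 3490 CPM, and reached 4740 CPM in that strain and 4599 to 4762 CPM in *tim_up10*. None of the marker genes of neurons (9 tested), fat body (5), muscle (6) or hemocytes (6) passed edgeR's rhythm test, with 2, 2, 0 and 0 at an unadjusted p under 0.05, and DESeq2 called 0 in each list. Of the photoreceptor markers 4 of 7 passed (57.1%), *inaD*, *trp*, *chp* and *Arr2*. Of the glial markers 2 of 8 passed (25%), *Indy* and *alrm*, and of the male markers 1 of 6 (16.7%), *Cyp4d21*. Over all genes tested the share was 5.92%. The part of cell composition in the results below was not tested. In bulk heads, fewer cells of a type and less RNA per cell cannot be told apart.

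A common rhythm was called for 653 of 11027 genes tested (5.92%) at an adjusted p under 0.05, and for 306 at an adjusted p under 0.01. The median amplitude of the called genes was 0.36 log2 units, against 0.13 over all genes tested. Of the 653, 52 had an amplitude of at least 1, which is a fitted 4-fold swing or more, and 147 had an amplitude under 0.25. The smallest among them was 0.16. The strains peaked within 2 h of each other in 561 called genes (85.9%) and within 4 h in 646 (98.9%), compared with 26.6% and 46.7% of all genes tested. Because the call itself needs the strains to move together, these shares describe the called genes and are no test. With the 6 libraries of a single strain, the same test called 267 genes in *tim_up10* (2.42%) and 129 in *tim_in24* (1.17%). Of the 653, 226 were called in *tim_up10* alone, 117 in *tim_in24* alone, and 80 genes were called in both single-strain fits. The 2 libraries *tim_up10* ZT10 and *tim_in24* ZT18 had high levels of a few genes, such as *CG16826* with 677 and 91.5 CPM. In the other libraries of these strains such genes were near 0, apart from *tim_up10* ZT6 (11.4 CPM of *CG16826*). In *yw* the amplitude of *CG16826* was 4.48, so it is not confined to these libraries. Without both *tim_up10* ZT10 and *tim_in24* ZT18, 396 genes were called, 362 of them among the 653, and none of the 653 turned to the opposite phase. The adjusted p reached 0.0499 just inside the threshold and started at 0.0501 just outside it.

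Late night and dawn held most of the peaks. Of the 653 genes, 256 (39.2%) peaked between ZT18 and ZT24, 168 (25.7%) between ZT0 and ZT6, 120 (18.4%) between ZT6 and ZT12, and 109 (16.7%) between ZT12 and ZT18. For the genes called in *yw*, the shares in the same order were 30.7%, 28.4%, 26.5% and 14.4%. Among all genes tested, called or not, 27.1% had a fitted peak between ZT18 and ZT24. The fullest 2 h bin was ZT20 to ZT22 with 116 genes, and the emptiest was ZT14 to ZT16 with 28. By the mean of both strains, 215 genes were highest at ZT22 and 218 were lowest at ZT10. The late-night group had the smallest median amplitude, 0.31, and the morning group the largest, 0.47. In the morning group 25 genes had an amplitude of at least 1, against 9 in the late-night group.

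**Figure D1:**
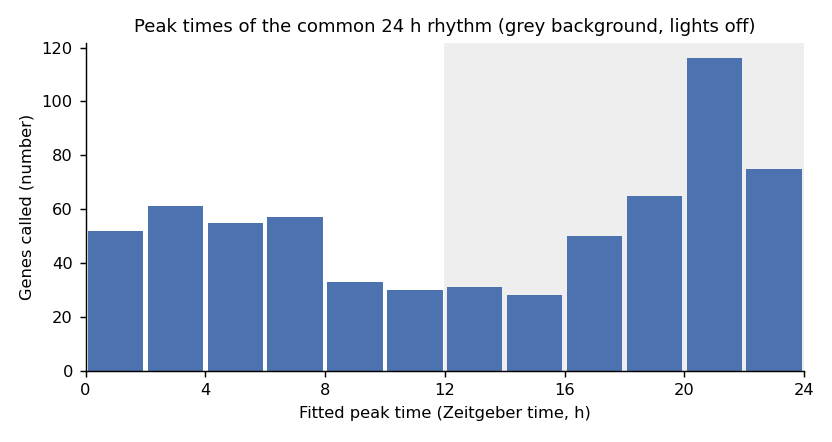
Number of genes (y axis) with a common 24 h rhythm in tim_up10 and tim_in24 by the fitted peak time in 2 h bins of Zeitgeber time (x axis, hours), over 653 called genes. The highest bar is ZT20 to ZT22 with 116 genes and the lowest is ZT14 to ZT16 with 28.

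The clock itself had a common rhythm. Of 9 core clock genes, 8 were called (88.9%, against 5.92% of all genes), with a list median amplitude of 0.76 against 0.13. Of the 8, 7 were also called in *tim_up10* alone and 6 in *tim_in24* alone. *per*, *tim*, *vri*, *Pdp1*, *cwo* and *CG31324* (*Cipc*) were high in the evening, and *Clk* and *cry* in the morning. The largest amplitude was that of *per*, which encodes the partner of TIM in repression. In *tim_up10* its level was 43.4, 77.2, 183, 232, 158 and 50.03 CPM from ZT2 to ZT22. In *tim_in24* it was 22.2, 59.9, 186, 238, 99.6 and 34.0 CPM. Both strains were thus highest at ZT14 and lowest at ZT2, with an amplitude of 1.52 ± 0.09, a fitted peak at ZT13.1 and an adjusted p of 8.8e-09. For *tim*, the 6 levels were 144, 153, 550, 949, 609 and 243 CPM in *tim_up10* and 207, 327, 1102, 1424, 1100 and 452 CPM in *tim_in24*. The curves had the same shape at different heights, with an amplitude of 1.45 ± 0.08, a peak at ZT14.5 and an adjusted p of 6.6e-09.

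The mRNA of *vri*, the repressor of *Clk*, went from 99.0 CPM at ZT2 to 396 CPM at ZT14 in *tim_up10* and from 47.4 to 396 CPM in *tim_in24*. Peaks were alike and the trough was lower in *tim_in24*. The amplitude of *vri* was 1.24 ± 0.10 (adjusted p = 2.6e-07). *Pdp1*, the activator of *Clk*, had an amplitude of 0.76 ± 0.08 and peaked at ZT13.9 (adjusted p = 7.2e-06). *cwo*, which encodes a repressor of CLK:CYC targets, had 0.41 ± 0.08 at ZT13.3 (adjusted p = 0.0030). *CG31324*, the fly relative of the CLK inhibitor CIPC of mammals, had 0.53 ± 0.14 at ZT12.3 (adjusted p = 0.011). It was highest at ZT10 in both strains, 93.0 and 110 CPM. *CG31324* was the only one of these 8 whose call was lost under an alternative that used both strains, with robust dispersion (adjusted p = 0.063).

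*Clk* was lowest at ZT14 in both strains, 12.7 and 16.6 CPM, and stood at 55.7 and 61.8 CPM at ZT2. Its amplitude was 0.92 ± 0.14 with a peak at ZT1.41 (adjusted p = 1.7e-04). *cry*, which encodes the blue-light receptor of the clock, ran from 108 CPM at ZT18 to 275 CPM at ZT6 in *tim_up10*. In *tim_in24* it ran from 113 to 290 CPM at the same times. Its 6 values in each strain lay nearly on top of each other, with an amplitude of 0.74 ± 0.06 and a peak at ZT3.56 (adjusted p = 2.4e-06). *cyc*, the partner of CLK, was the gene not called: its levels lay between 30.0 and 47.3 CPM with an amplitude of 0.14 ± 0.07 (adjusted p = 0.42). Among 14 genes for kinases, phosphatases and degradation factors of the clock, 2 were called (14.3%, against 5.92% of all genes). These were *Fbxl4*, an F-box gene, with an amplitude of 0.26 at ZT16.1, and *tws*, a regulatory subunit of PP2A, with 0.26 at ZT9.71. The call of *tws* was lost in 8 of 24 alternatives.

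**Figure D2:**
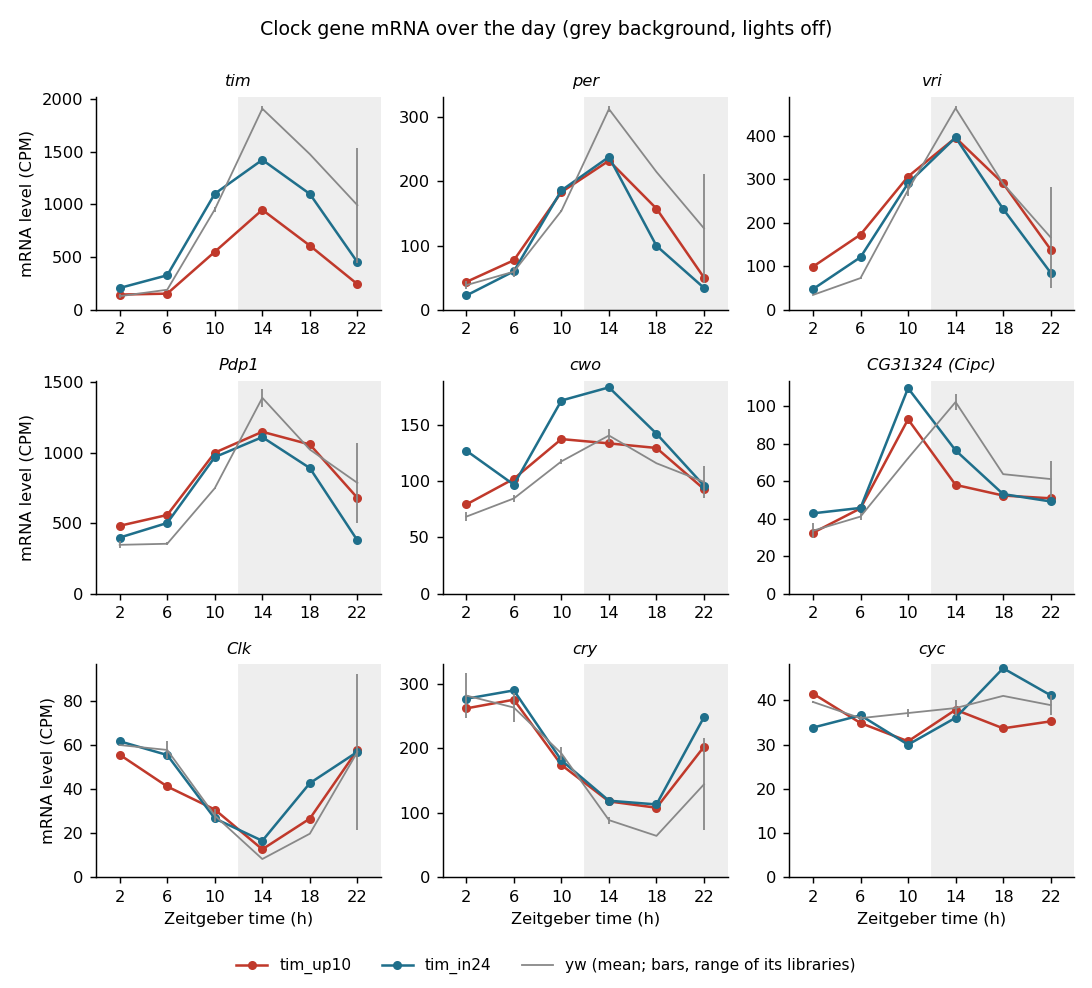
mRNA level in CPM (y axis, from 0) of 9 core clock genes over Zeitgeber time (x axis, hours): circles are the single libraries of tim_up10 and tim_in24, grey lines the mean of yw with bars for the range of its libraries. The level of tim is higher in tim_in24 than in tim_up10 at all 6 time points, per, vri and cry nearly coincide at their peaks, and cyc shows no common rhythm.

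The strains were then compared with each other and with *yw* for these 9 genes, by exact permutation of strain labels within each time point, two-sided, with adjustment over the 18 measures of each comparison (amplitude and phase of 9 genes). Between *tim_up10* and *tim_in24* none of the 18 passed. The smallest p was 0.0312, for the amplitude of *vri* (0.99 in *tim_up10*, 1.49 in *tim_in24*). It is the smallest that 64 arrangements allow and became 0.56 after adjustment. No single measure could therefore have passed by itself, and this outcome does not show that the strains agree. Against *yw*, 3 measures passed over 23328 arrangements. The amplitude of *tim* was 1.45 here and 2.05 in *yw* (adjusted p = 0.020), that of *cry* 0.74 and 1.07 (adjusted p = 0.016), and *CG31324* peaked at ZT12.3 against ZT14.9 (adjusted p = 0.016). All 8 called clock genes peaked earlier than in *yw*, with a median phase difference (these strains minus *yw*) of -1.39 h, and 7 of the 8 had a smaller amplitude, *per* being the exception with 1.52 against 1.49. Without *yw* ZT22 replicate 1 this turned, to 1.52 against 1.57, and all 8 were smaller.

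These differences depend on the 2 *yw* ZT22 libraries, which disagree, with 1541 and 446 CPM of *tim*. Without replicate 1, the library with the higher *tim* level, 7 measures passed and the median phase difference was -0.73 h. The amplitudes of *vri*, *tim*, *Clk*, *Pdp1* and *cry* and the phases of *CG31324* and *per* made up the 7. Without replicate 2, 8 passed and the median phase difference was -2.11 h. The amplitudes of *cry*, *tim*, *Pdp1* and *Clk* and the phases of *CG31324*, *per*, *Clk* and *Pdp1* made up the 8. The amplitudes of *tim* and *cry* and the phase of *CG31324* passed in all 3 settings. edgeR's test of the whole rhythm against *yw*, fitted across all genes, called none of the 9, with adjusted p from 0.17 for *Pdp1* to 0.92 for *cyc*.

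The leading genes of the late-night group included *CG34134* and *Achl*, which had the largest amplitudes of the named genes. *CG34134*, a gene without a named function here, had the smallest p of all genes (adjusted p = 1.8e-10) and an amplitude of 2.86 ± 0.18. Its levels in *tim_up10* were 49.6, 6.08, 6.79, 11.3, 79.9 and 170 CPM from ZT2 to ZT22. In *tim_in24* they were 43.9, 6.17, 2.52, 10.3, 121 and 223 CPM. Every value from ZT6 to ZT14 was thus below every value at the other times, in both strains. *Achl*, a gene known from other work as a clock output in heads, was 5.36 CPM at ZT10 and 313 CPM at ZT22 in *tim_up10*. In *tim_in24* it was 3.53 CPM at ZT10 and 334 CPM at ZT18. Its amplitude was 2.83 ± 0.28, with a peak at ZT20.5. *t* (*tan*), whose enzyme regenerates histamine from carcinine at photoreceptor terminals, ran from 157 CPM at ZT10 to 753 CPM at ZT22 in *tim_up10*. In *tim_in24* it ran from 172 to 779 CPM (amplitude 1.05 ± 0.06). *Culd*, a photoreceptor gene for endocytic trafficking, ran from 260 to 951 CPM and from 267 to 1023 CPM between the same times (0.95 ± 0.06). *CG4629* (0.63 ± 0.04) and *fipi* (0.60 ± 0.03), an immunoglobulin-family gene tied to courtship song, completed the leading 6.

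In the morning group the leading genes were 3 odorant-binding protein genes, described below, *cry*, *Chd64* and *S-Lap2*. *Chd64*, a calponin-like gene linked to juvenile hormone response, fell from 300 and 316 CPM at ZT2 to 156 and 171 CPM at ZT14, an amplitude of 0.49 ± 0.02. *S-Lap2*, a leucyl aminopeptidase gene known from sperm, was at 29.0 and 26.8 CPM at ZT2, at 3.70 and 4.05 CPM at ZT6, and at most 0.37 CPM at all other times. It was thus a spike of 1 time point in both strains, and its fitted amplitude of 2.55 ± 0.67 is no bound, since it had 0 counts in both ZT22 libraries, in *tim_up10* ZT14 and in *tim_in24* ZT18. In *yw* the highest *S-Lap2* level was 2.66 CPM, and in *tim_up126* the ZT2 libraries had 12.4 and 13.4 CPM. Its rhythm did not differ from *yw* past the threshold (adjusted p = 0.10).

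Midday was led by 3 neighbouring genes. *lncRNA:CR45456*, *lncRNA:CR45457* and *CG17005* follow each other on the plus strand of chromosome 2L, with gaps of 317 bp and 190 bp, so that they may not be independent measurements. *CG17005* (2L from 9327744 to 9330332) had 48.6, 125, 61.5, 8.55, 5.53 and 4.93 CPM in *tim_up10*. In *tim_in24* it had 44.96, 114, 86.2, 14.5, 6.03 and 3.19 CPM. All 3 were highest at ZT6 in both strains, and their amplitudes were 2.49 ± 0.18, 2.43 ± 0.10 and 2.51 ± 0.22. *Cks30A*, a subunit of cyclin-dependent kinase complexes, was between 16.1 and 32.6 CPM from ZT2 to ZT10 and at most 3.87 CPM from ZT14 to ZT22. It lies close past *CG17005* on the same strand (2L from 9330763 to 9331981), so it may not be independent of these 3 genes either. *Usp8*, a deubiquitinase gene, was highest at ZT10, 308 and 317 CPM, and lowest at ZT22, 51.1 and 44.2 CPM (amplitude 1.24 ± 0.10). *CG2121* was highest at ZT10 as well (0.69 ± 0.06).

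The evening group (ZT12 to ZT18) was led by *tim*, *per*, *vri* and 3 further genes. *gol* (*goliath*), a ubiquitin ligase gene on chromosome 2R, stood at 95.9 and 101 CPM at ZT2 and at 377 and 433 CPM at ZT10. It remained at 376 and 409 CPM at ZT14, so its plateau began earlier than that of *tim*. Its amplitude was 1.14 ± 0.08 with a peak at ZT13.2. *snoRNA:Or-CD16* lies inside *tim* on the same strand, from 3504032 to 3504182, so its reads and those of *tim* may be the same transcript. It went from 4.23 to 32.8 CPM in *tim_up10* and from 5.96 to 41.8 CPM in *tim_in24*. *CG4825* (*Pss*), a phosphatidylserine synthase gene, was highest at ZT14, 189 and 202 CPM (0.53 ± 0.04).

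**Figure D3:**
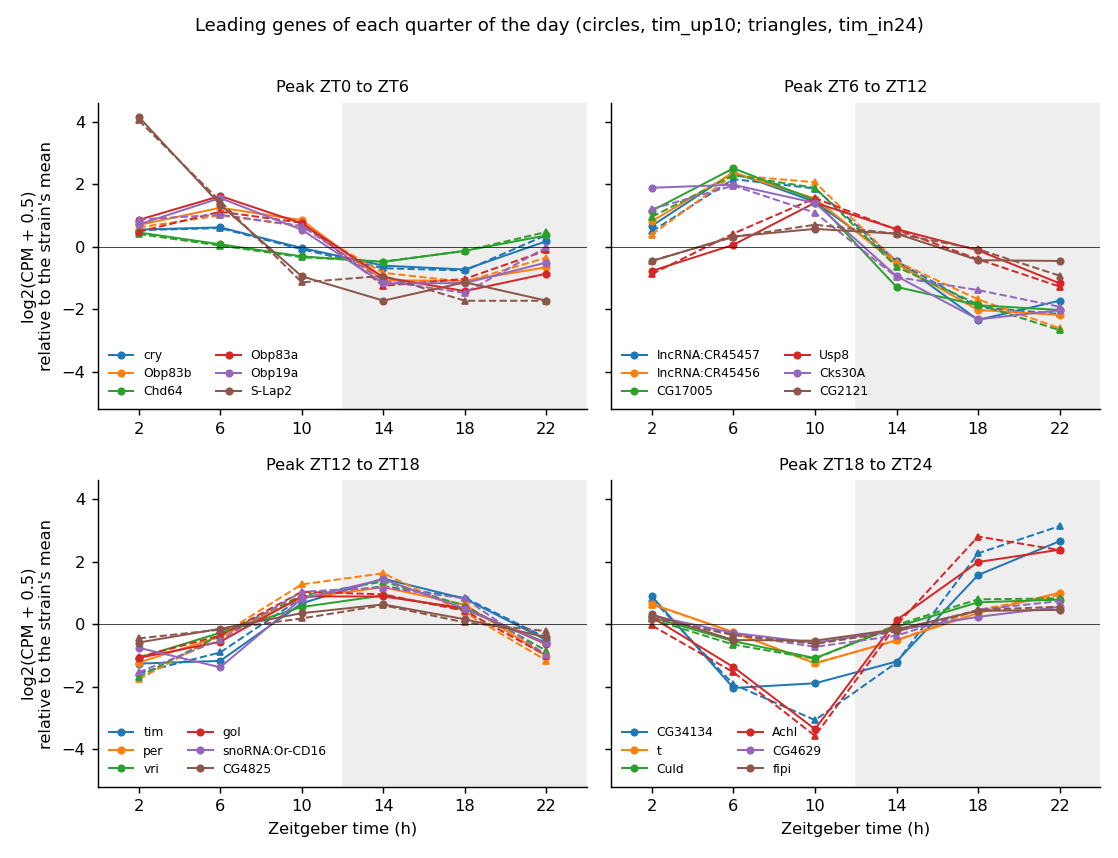
Level of the 6 genes with the smallest p in each 6 h span of peak times, as log2(CPM + 0.5) relative to the mean of the strain (y axis), over Zeitgeber time (x axis, hours). Circles with solid lines are tim_up10 and triangles with dashed lines are tim_in24, 1 library per point. CG34134 and Achl reach the lowest values, at ZT6 to ZT10, and S-Lap2 has a single high time point, ZT2.

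Genes of the eye cycled in high share. Of 27 genes for rhodopsins and phototransduction, 13 were called (48.1%, against 5.92%), with a list median amplitude of 0.23 against 0.13 over all genes. *inaD*, the scaffold that holds the transduction proteins together, had the largest amplitude among them, 0.72 ± 0.06 with a peak at ZT22.9. It peaked in the same late-night span as *Gbeta76C*, the beta subunit of the visual G protein (0.46 ± 0.03, ZT22.4), *Arr2*, the major arrestin (0.22 ± 0.04, ZT20.7), and *Pkc53E*, a photoreceptor protein kinase C (0.42 ± 0.06, ZT19.6). *trpl*, one of the light-gated channels, was the one called member with a peak between ZT6 and ZT12. It went from 1966 and 2141 CPM at ZT22 to 3991 and 4091 CPM at ZT10 (0.46 ± 0.03). The channel *trp* (0.23 ± 0.03) peaked at ZT16.0 and the phospholipase C gene *norpA* (0.25 ± 0.05) at ZT14.9. The opsin genes of the R8 photoreceptors peaked in the evening, *Rh5* at ZT14.7 (0.38 ± 0.05) and *Rh6* at ZT12.6 (0.28 ± 0.05). *Rh5* went from 202 CPM at ZT2 to 389 CPM at ZT14 in *tim_up10*, and from 232 to 371 CPM in *tim_in24*. *inaC*, the eye protein kinase C, and *laza*, a lipid phosphatase gene, peaked in the morning, at ZT2.02 and ZT2.64. Of the 13, 11 had a smaller amplitude than in *yw*, where 18 of the 27 were called, and none of the 13 differed from *yw* past the threshold. The call of *Arr2* and of *norpA* was lost in 6 of 24 alternatives each.

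Around the visual pigment, 8 of 11 genes for retinoid and carotenoid handling were called (72.7%, against 5.92% of all genes), with a list median amplitude of 0.49. *Pdh*, a retinol dehydrogenase gene, had 0.61 ± 0.06 and peaked at ZT23.8, with 1409 and 1355 CPM at ZT22 and 551 and 541 CPM at ZT14. *ninaA*, the cyclophilin chaperone of the main rhodopsin, had 0.53 ± 0.08 at ZT18.9, and *pinta*, a retinoid-binding protein gene, had 0.53 ± 0.04 at ZT22.0. *Xport-A* and *Xport-B*, which overlap on the same strand and are 1 measurement, had 0.49 ± 0.05 at ZT17.3. Their protein products help TRP and rhodopsin leave the endoplasmic reticulum, as does that of *Cnx99A* (0.41 ± 0.05, ZT16.1). *ninaD*, a scavenger receptor for carotenoid uptake, had levels of 2.54 to 7.40 CPM in *tim_up10* and 22.3 to 54.98 CPM in *tim_in24*, which do not overlap. Its common rhythm (0.55 ± 0.12, ZT3.99) lost its call when the spread was estimated over all 47 libraries (adjusted p = 0.28). Of 11 genes for histamine and other amines, 6 were called (54.5%). Besides *t*, these were *Hdc*, which makes histamine (0.50 ± 0.04, ZT21.7), *ple*, tyrosine hydroxylase (0.56 ± 0.09, ZT1.09), *CarT*, the carcinine transporter (0.22 ± 0.04, ZT9.01), *e* (*ebony*, 0.33 ± 0.08, ZT20.3) and *Balat*, a transporter of beta-alanine (0.39 ± 0.08, ZT17.3). The histamine maker *Hdc* and the recycler *t* peaked within 1 h of each other late at night, and *CarT* peaked by day. The calls of *e* and *Balat* were lost in 8 and 18 of 24 alternatives.

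Of 17 tested genes listed as cyclers of fly heads, 14 were called (82.4%, against 5.92% of all genes), with amplitudes from 0.33 to 2.83. *Achl*, *Usp8*, *Pdh* and *trpl*, described above, belong to this list. *Ugt35B1*, a glucuronosyltransferase gene, reached 176 CPM in *tim_up10* and 320 CPM in *tim_in24*, both at ZT22 (0.83 ± 0.13). *to* (*takeout*), a feeding-related gene of the clock output, had 131 and 254 CPM at ZT22 and at most 134 CPM at all other times (0.69 ± 0.12). *Slob*, a partner of the Slowpoke potassium channel, was highest at ZT10, 689 and 762 CPM (0.56 ± 0.08). It was also the one called member among 18 ion channel and sleep genes (5.56%, near the 5.92% of all genes). *Cyp4d21*, a male-biased cytochrome P450 gene of fat tissue, was called with an adjusted p of 0.049, and the call was lost in 17 of 24 alternatives. In the takeout family 5 of 16 genes were called (31.2%), with *CG17279* largest at 0.84 ± 0.17. The calls of *CG17189*, *CG5945* and *CG14661* were lost in 11, 8 and 4 of 24 alternatives, and those of *to* and *CG17279* in none. Of 14 neuropeptide genes 1 was called (7.14%, near the 5.92% of all genes), *CNMa* (0.75 ± 0.19, ZT14.9). Its level was between 1.05 and 5.36 CPM in *tim_up10* and between 4.82 and 18.04 CPM in *tim_in24*, and its call was lost in 2 of 24 alternatives.

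Subunits of the mitochondrial respiratory chain had small swings with fitted peaks late at night. Of 67 tested, 19 were called (28.4%, against 5.92% of all genes), with a list median amplitude of 0.17. All 19 had a peak between ZT20.1 and ZT22.7 and amplitudes from 0.17 to 0.30. Over the whole list, called or not, 63 of 67 had their fitted peak between ZT18 and ZT24 (94.0%), against 27.1% of all genes tested. *ND-42*, of complex I, went from 161 CPM at ZT10 to 221 CPM at ZT22 in *tim_up10*. In *tim_in24* it went from 167 to 230 CPM. *SdhD*, of complex II, went from 89.4 to 130 CPM and from 101 to 163 CPM between the same times. These swings are a fitted 1.26-fold to 1.51-fold, near the smallest that were called, and none of the 19 was called in either strain alone. Of the 67, 50 were called in *yw*, where 15.5% of all genes were called, 1 in *tim_up126* (6.03% of all genes) and 0 in *tim_up122* (7.14% of all genes). Each of the 19 lost its call in some of 24 alternatives, from 1 for *SdhD* and 2 for *ND-42* to 16 for *Cyt-c1* and *ATPsynE*. Without *tim_in24* ZT22, the library with the lowest neuron markers, *ATPsyndelta*, *ATPsynE*, *ND-30*, *ND-B12*, *ND-B17*, *ND-B18*, *ND-B22*, *ND-PDSW* and *SdhC* were not called. The rest of the 19 kept their call in that fit. The genes of mitochondrial and cytosolic ribosomes gave 1 call of 73 (1.37%) and 0 of 85. Among 34 proteasome genes 0 were called by edgeR. At an unadjusted p under 0.05 there were 0 of the 85 and 1 of the 34, and DESeq2 called 0 in both lists.

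Odorant-binding proteins, secreted by support cells of the olfactory hairs of the antenna, made up 3 of the 6 leading morning genes. The list was formed after seeing the data for that reason. It also holds *Os-C* and *a5*, antennal genes that are not odorant-binding proteins, and both count in the numbers and sums below. Of 33 tested, 11 were called (33.3%, list median amplitude 0.31), 9 of them with a peak between ZT5.10 and ZT5.94. The other two, *Obp19c* and *Obp8a*, peaked at ZT18.2 and ZT23.9. All 9 daytime members lost their call when the spread was estimated over all 47 libraries. *Obp83b* (chromosome 3R from 5976177 to 5976817) had 27.2, 40.2, 30.4, 7.62, 7.54 and 10.4 CPM in *tim_up10*. In *tim_in24* it had 43.1, 56.5, 44.4, 15.5, 12.6 and 21.9 CPM. Within each strain, every daytime value exceeded every night value. Its amplitude was 1.23 ± 0.09 (adjusted p = 3.6e-07). *Obp83a*, which lies 931 bp away, had 1.38 ± 0.14, and *Obp19a*, on chromosome X, had 1.39 ± 0.11. *Os-C*, *a5*, *Obp59a*, *lush*, *Obp84a* and *Obp28a* had amplitudes from 0.42 for *Obp28a* to 1.33 for *a5*. Of the olfactory receptor genes, 2 of 22 were called (9.09%, against 5.92% of all genes), the coreceptor *Orco* (0.43 ± 0.12, ZT5.47) and *Or22a* (0.94 ± 0.16, ZT4.80). *Orco* lost its call in 6 of 24 alternatives, including the spread estimated over all 47 libraries (adjusted p = 0.43). *Or22a*, with a mean of 1.16 CPM, lost its call in 5 of 23.

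Summed over the 9 genes, the level in *tim_up10* was 216, 372 and 220 CPM at ZT2, ZT6 and ZT10 and 76.9, 77.9 and 83.5 CPM at ZT14, ZT18 and ZT22. In *tim_in24* it was 245, 323 and 284 CPM by day and 85.4, 98.8 and 162 CPM by night. In the strains with replicates, the same sum differed between libraries of 1 time point by up to 4.53-fold in *yw*, 10.7-fold in *tim_up126* and 2.75-fold in *tim_up122*. At ZT14 the *yw* libraries had 92.7 and 420 CPM. The sum over all 33 tested members, in which other genes dominate, ranged only between 3748 and 4338 CPM in *tim_up10* and between 3432 and 4466 CPM in *tim_in24*. In *yw* the 9 genes had amplitudes from 0.17 to 0.51 with adjusted p of at least 0.65. The difference from *yw* did not pass for any of them, with adjusted p from 0.18 to 0.69. With the spread estimated over all 47 libraries, the adjusted p ran from 0.057 for *lush* to 0.44 for *Obp28a*. *Orco*, a marker of olfactory neurons, followed the sum in part. It had 25.6, 25.1 and 15.7 CPM by day in *tim_up10*, 26.5, 21.8 and 26.5 CPM by day in *tim_in24*, and at most 16.9 CPM at night. At ZT10 in *tim_up10* it was thus at the level of the night while the sum was not. The part of antennal tissue per library in this rhythm was not tested.

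**Figure D4:**
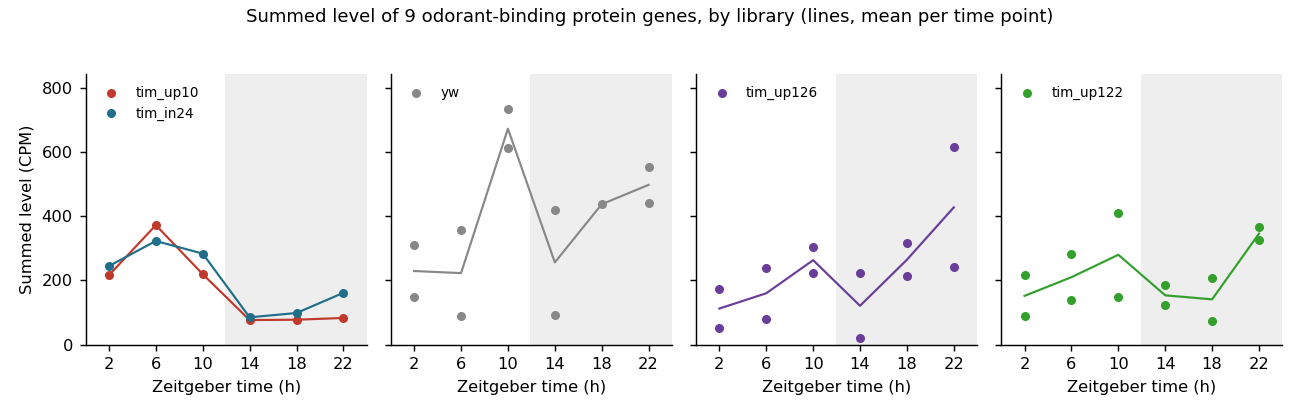
Summed level in CPM (y axis, from 0) of 9 genes of the odorant-binding protein list over Zeitgeber time (x axis, hours). Os-C and a5, which are not odorant-binding proteins, are among the 9. There is 1 point per library, with lines through the mean of each time point. tim_up10 and tim_in24 lie between 216 and 372 CPM by day and between 76.9 and 162 CPM at night, while the libraries of 1 time point differ by up to 4.53-fold in yw and 10.7-fold in tim_up126.

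Of 19 heat shock and chaperone genes tested, 4 were called (21.1%, against 5.92% of all genes, list median amplitude 0.25). *Hsp83*, *Hsc70-4*, the constitutive HSP70, *Gp93* and *Pdi*, both of the endoplasmic reticulum, peaked between ZT6.32 and ZT7.75. The call of *Gp93* was lost in 11 of 24 alternatives, that of *Pdi* in 6, and those of *Hsp83* and *Hsc70-4* in 1 each. *Hsp83*, the fly HSP90, fell from 1176 CPM at ZT6 to 533 CPM at ZT22 in *tim_up10*. In *tim_in24* it was 1264 CPM at ZT2 and 734 CPM at ZT18 (0.39 ± 0.09). Of the antimicrobial peptide genes 2 of 14 were called (14.3%), *Drs* and *DptA*. *Drs* rests on 1 high library per strain. It was 238 CPM in *tim_up10* ZT10 and 163 CPM in *tim_in24* ZT6 and at most 30.8 CPM in the other 10 libraries. *DptA* was 27.2 and 26.2 CPM in the same libraries and at most 14.9 CPM elsewhere. The call of *Drs* was lost in 12 of 24 alternatives and that of *DptA* in 16. Genes for oxidation and detoxification had 4 of 16 called (25.0%), with *Cyp6g1* largest (0.71 ± 0.15, ZT4.58), a detoxification P450, and both subunits of glutamate-cysteine ligase, *Gclc* and *Gclm*, called with peaks at ZT18.9 and ZT11.1. Lipid synthesis and storage had 2 of 15 called (13.3%), *SREBP*, its master regulator, at ZT8.70 and *mdy*, a diacylglycerol acyltransferase gene, at ZT0.57. Starch digestion had 1 of 12 (8.33%, near the 5.92% of all genes), *Mal-A2*, whose call was lost in 19 of 23 alternatives.

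The rhythms of the 2 strains were also tested against each other. Only 5 genes differed (0.0453%), while 484 had an unadjusted p under 0.05. None of the 653 shared rhythms was among the 5. That is no test of the 653, because the share over all genes is so small and their call needs the strains to move together. The 5 were *whe*, *CG45080*, *CG16826*, *CG33109* and *lcs*, the last named although outside the rule of 4 genes. *CG16826* was at 677 CPM in *tim_up10* ZT10, 11.4 CPM in *tim_up10* ZT6 and 91.5 CPM in *tim_in24* ZT18, and at most 0.39 CPM in the other 9 libraries. *whe* was at 278, 7.13 and 43.3 CPM in the same 3 libraries and at 0 in the other 9. The highest values were thus in 1 library of each strain. The 5 calls did not depend on *tim_up10* ZT10, without which 7 genes were called, all 5 among them. Without *tim_in24* ZT18, 0 genes were called by edgeR, with 517 at an unadjusted p under 0.05. Without *tim_in24* ZT2, 35 were. With a filter set on the 12 libraries alone, none of the 5 was tested and 0 genes were called, with 416 at an unadjusted p under 0.05. DESeq2 called 2 genes, neither of them among the 5.

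Most shared rhythms were also found in *yw*. Of the 653, 470 were called there too (72% of the 653 and 27.6% of the 1704 called in *yw*, where 15.5% of all genes were called). Their median phase difference from *yw* was -0.52 h, and 318 of them (67.7%) had the smaller amplitude here, with a median of 0.36 against 0.43. Without *yw* ZT22 replicate 1 the median phase difference was -0.34 h, and without replicate 2 it was -0.67 h. Over all genes tested it was -0.23 h, and 53.5% had the smaller amplitude here. The other 183 genes were not called in *yw*, but 1 of them differed from *yw* past the threshold and 75 had an unadjusted p under 0.05. Of the 653, 290 (44.4%) were called in *tim_up126*, where 6.03% of all genes were called, and 335 (51.3%) in *tim_up122*, where 7.14% were. In all, 218 were called in all 3 other strains, and 123 in none of them.

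**Figure D5:**
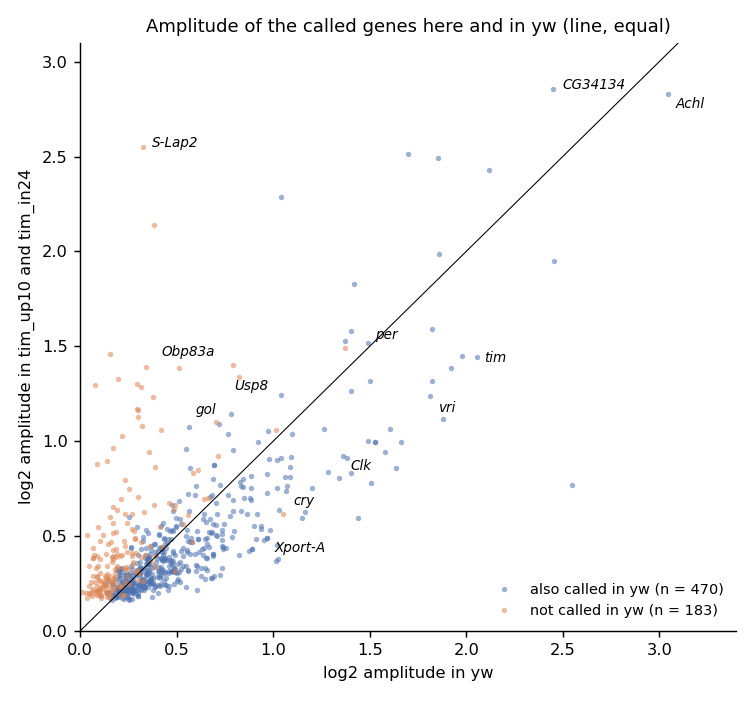
Log2 amplitude of the 653 called genes in tim_up10 and tim_in24 (y axis) against that in yw (x axis), 1 point per gene, with the line of equal amplitude. Blue points are the 470 genes also called in yw and orange points the 183 that were not. tim, vri, Clk and cry lie below the line, and gol, Usp8, S-Lap2 and Obp83a lie above it.

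A difference in rhythm from *yw* passed the threshold for 16 genes (0.145%), 8 of them among the 653, with the larger amplitude here in 4 and in *yw* in 12. *gol* and *Usp8* peaked earlier here, at ZT13.2 and ZT10.8, than in *yw*, at ZT16.6 and ZT14.0. In *yw*, *gol* was 253 CPM at ZT10 and 471 CPM at ZT14 (mean, n = 2), whereas both strains had already reached their plateau at ZT10. The adjusted p was 0.0029 for *gol*, at most 0.014 in 28 alternatives, and 0.025 for *Usp8*. *Xport-A* had a smaller amplitude here, 0.49 against 0.97 (adjusted p = 0.025). For 4 of the 6 genes with the smallest p, *CG15784*, *Aladin*, *Hsp26* and *TpnC4*, a rhythm was called in *yw* and not here. *CG15784* ran from 48.5 to 85.5 CPM over the 12 libraries and from 46.1 to 186 CPM over the means of *yw* (adjusted p = 0.011). *Aladin*, a nuclear pore gene, lay between 10.02 and 12.5 CPM here and at up to 21.9 CPM in *yw*, at ZT10 (mean, n = 2) (adjusted p = 0.0091). *Hsp26*, a small heat shock gene, had amplitudes of 0.02 and 0.77 (adjusted p = 0.025). *TpnC4*, a troponin C of muscle, lay between 1.01 and 3.96 CPM here. In *yw* it was 16.4 CPM in the single ZT18 library and 3.62 and 15.1 CPM at ZT22, and at most 1.21 CPM at other times (adjusted p = 0.0029). Of the 6 muscle markers, 5 were called in *yw*, where 15.5% of all genes were called, and 0 here. Their part in the result for *TpnC4* was not tested. *CG44142* rests on 11.1 CPM in *tim_up10* ZT10, and its call was lost without that library. The count of 16 fell to 5 without *tim_in24* ZT10 and to 6 or 7 without *yw* ZT6 replicate 1 or 2 or *yw* ZT10 replicate 2. It was 9 or 10 without *tim_up10* ZT6 or ZT18 or *tim_in24* ZT22. It rose to 27 without *tim_in24* ZT6 and to 30 to 38 without *tim_in24* ZT18, *yw* ZT10 replicate 1, *yw* ZT14 replicate 1, *yw* ZT18 replicate 1 or *yw* ZT22 replicate 2.

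Against *tim_up126*, the strain with the longest deletion, 64 genes differed (0.580%), 35 of them among the 653. Each p is for the whole rhythm, amplitude and phase together. Of the 8 cycling clock genes 4 passed, each with the larger amplitude in the strains with small deletions. The amplitude of *per* was 1.52 against 0.55 (adjusted p = 1.7e-08), of *vri* 1.24 against 0.39 (5.3e-06), of *tim* 1.45 against 0.59 (6.4e-05) and of *Pdp1* 0.76 against 0.25 (0.047). In *tim_up126*, *per* had 116 CPM at ZT22 and 223 CPM at ZT10 (means, n = 2). Its ZT22 level lay above the 34.0 and 50.03 CPM found here at that time. The trough here was at ZT2, with 43.4 CPM in *tim_up10* and 22.2 CPM in *tim_in24*. *gol* had the smallest p, with 1.14 against 0.33 (1.1e-09). *Usp8* had 1.24 against 0.60 (4.2e-04). For *Slob* the amplitudes were close, 0.56 and 0.45, and the peaks were at ZT12.9 here and ZT20.03 in *tim_up126* (5.3e-05). *CG15784* went the other way, with 0.22 against 1.83 (2.8e-05) and up to 834 CPM at ZT10 in *tim_up126*. Of the 64 genes, 48 had the smaller amplitude here and 16 the larger. The count was 42 and 41 without *tim_up126* ZT10 replicate 1 and replicate 2.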

How the data were processed

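Poly(A) RNA of heads was sequenced and the authors deposited raw counts per gene symbol on dm6. For this step Tophat and ESAT are named in the paper, and STAR and FeatureCounts in the deposited design text. Versions, annotation and strand setting are not given in the sources used here. A deposited table of normalized values was not used. Of 17137 genes, 11027 passed filterByExpr over all 47 libraries. The test used edgeR 4.0.16 in R 4.3.3 (TMM over all libraries, quasi-likelihood F test, Benjamini-Hochberg adjustment, threshold 0.05). Amplitudes, phases and SE were fitted to log2 CPM (prior count 2) by least squares in limma 3.58.1. The edgeR tests of a common rhythm and of a strain difference were checked on simulated data, the other tests were not. The simulated counts had the same dispersion for every gene. Genes at 0 in most libraries and high in a few, like those of the strain difference, were therefore not covered.

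The members and lists were chosen with earlier results of these data known. Named genes were the clock genes, the 6 genes with the smallest p in each 6 h span of peak times (mean of at least 5 CPM, strain phases within 4 h), the 5 largest amplitudes, the leading 4, 6 and 4 genes of the strain, *yw* and *tim_up126* differences, and called list members. Positions come from BDGP6.54 for 123 of 123 named genes. Of these, 48 overlap another gene, 12 on the same strand, and 210 tested genes share identical counts with another. Alternatives were RLE factors, library totals, other filters, DESeq2 1.42.0, other rhythm shapes and dispersions, a prior count of 0.5, and each library left out in turn. The lowest chi-square per degree of freedom between replicates was 4.24 in 17 pairs, so no pair was merged. Nothing in the labels says that *tim_up10* and *tim_in24* libraries come from separate cultures, so p-values measure the spread between these libraries.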

Additional observations from a re-analysis of the deposited data

Results flagged for a closer look

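These results were picked out because an effect differed between strains. The count of genes whose rhythm differed between *tim_up10* and *tim_in24* was 5, from *yw* 16 and from *tim_up126* 64. Between the strains, the adjusted p was 2.0e-06 for *whe*, 1.0e-05 for *CG45080*, 1.3e-05 for *CG16826* and 0.0038 for *CG33109*. Within the 12 libraries of *tim_up10* and *tim_in24*, these 4 were at or near 0 outside *tim_up10* ZT6 and ZT10 and *tim_in24* ZT18. Against *yw*, it was 0.0029 for *gol*, 0.0029 for *TpnC4*, 0.0077 for *CG44142*, 0.0091 for *Aladin*, 0.011 for *CG15784* and 0.025 for *Hsp26*. Against *tim_up126*, it was 1.7e-08 for *per*, 5.3e-06 for *vri*, 1.1e-09 for *gol* and 2.8e-05 for *CG15784*. By exact permutation against *yw*, the adjusted p was 0.020 for the amplitude of *tim*, 0.016 for that of *cry* and 0.016 for the phase of *CG31324*.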

How the results depend on the processing

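No paired analysis was possible because *tim_up10* and *tim_in24* have replicate number 1 alone, so that the groups compared share fewer than 2 numbers. Strains were matched by time point in the permutation tests and in the fit with time point as a factor. The count of 653 stayed within 1.5 times under 8 other normalizations, filters, tools, shapes and dispersions, and was 421 with time point as a factor (347 of the 653 shared), 267 with *tim_up10* alone and 129 with *tim_in24* alone. In alternatives added after seeing the data it was 396 without both *tim_up10* ZT10 and *tim_in24* ZT18. Leaving out each library in turn gave 454 to 642. The strain difference of 5 genes became 0 with the filter on the fitted libraries, 2 with DESeq2, 2 without both of those libraries (an added alternative), and 0 to 35 with 1 library left out. The difference from *yw*, 16 genes, became 544 with no filter on low counts (all 16 shared), 91 with DESeq2 and 5 to 38 with 1 library left out. That from *tim_up126*, 64 genes, became 175 with no filter, 132 with DESeq2 and 41 to 94 with 1 library left out. The cause of these shifts was not tested. The exact permutation tests against *yw* passed 3 of 18 measures, and 7 to 8 without 1 of the *yw* ZT22 libraries. Rhythms in *yw* and *tim_up126* moved little with RLE factors (1705 and 664 genes). Of 114 named genes, 58 had the same outcome in every alternative that used both strains, among them *cyc*, which stayed not called. No named gene reversed its phase.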
